A study of Rattus norvegicus with 18 samples.

Results

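The livers of 12 adult female rats, 6 that received vitamin D at 1000 U/kg for 3 months and 6 that received 0 U/kg, were compared gene by gene. They are 12 of the 18 libraries of a dose series whose remaining 6 rats received 5000 U/kg, and they were taken by the dose given in their titles. All rats were about 1 year old, each library is labelled as a separate replicate, and the labels name no strain, no vehicle and no form of vitamin D, nor whether the kg of a dose means the rat or its feed. RNA was read by 3' mRNA sequencing, which reads 1 end of each polyadenylated transcript, so that a long gene gathers no more reads than a short one at the same number of transcripts. The files list genes by Ensembl ID only, and for 0 of the 30560 IDs was a symbol at hand. Neither the known liver genes nor the markers of hepatocytes and other cell types could therefore be looked up, and the labelled tissue was not checked against them. The transcripts are described below by their level, with an ID for 3 single genes.

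The liver takes up vitamin D from food and skin and adds the first hydroxyl group, which gives 25-hydroxyvitamin D, the main form in blood. It also secretes the vitamin D binding protein that carries it. The kidney makes the hormone 1,25-dihydroxyvitamin D, which acts through the vitamin D receptor, a nuclear receptor that is low in hepatocytes and higher in the non-parenchymal cells of the liver. Hepatocytes give much of their polyadenylated RNA to a small set of transcripts for secreted plasma proteins.

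Gene counts totalled 7969100 to 12555457 in the undosed libraries and 7854139 to 10923581 at 1000 U/kg. A pair of libraries stood apart. The mean Spearman correlation with the other libraries of its group was 0.698 for the undosed replicate 2 and 0.801 for replicate 5 at 1000 U/kg. In the other 10 libraries it ranged from 0.869 to 0.92. Whether the rat, the piece of liver or the library preparation sets these 2 libraries apart was not tested. Genes with at least 1 count numbered 13422 to 15356 per undosed library and 14536 to 15231 per dosed one.

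The liver RNA of both doses was divided in much the same way between abundant and scarce transcripts. Levels, given as CPM (a gene's counts relative to the scaled total of its library), averaged at least 1000 in 99 genes, 100 to 1000 in 932, 10 to 100 in 4858 and under 10 in 5379 of the 11268 genes with enough counts to be tested. The 99 most abundant held 58.0% ± 3.58 of gene counts in undosed rats and 59.6% ± 1.24 at 1000 U/kg (SD, n = 6 each), with ranges of 51.4% to 61.9% and 57.5% to 60.9%. The 932 genes of the next class held 24.1% ± 1.76 and 22.7% ± 1.39, and the 4858 genes of 10 to 100 CPM 15.5% ± 1.73 and 15.1% ± 0.588. The ranges of the groups overlapped in all these classes.

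Few transcripts were counted in most rats of one dose and in no rat of the other. Of the 30560 genes listed, 11326 had no count in any of the 12 libraries and 10968 had at least 1 count in all 12. In 1 gene all 6 undosed libraries were at 0 and all 6 dosed ones had a count, and 0 genes showed the reverse. With a count in at least 4 of 6 libraries at one dose and 0 in all 6 at the other, there were 26 genes on the dosed and 16 on the undosed side. Counts in any dosed library, against 0 in all undosed ones, were found for 1204 genes, of which 255 had them in replicate 5 alone. The reverse held for 1050 genes, of which 169 had counts in the undosed replicate 2 alone.

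The question of the comparison was which liver transcripts the lower dose changes. No gene passed. At a Benjamini-Hochberg adjusted p under 0.05, 0 of 11268 genes (0.0%) were called by the quasi-likelihood test of edgeR, 0 by DESeq2 and 0 by limma voom. DESeq2 gave some genes no adjusted p, so its 0 covers only the genes that had one. At an unadjusted edgeR p under 0.05 there were 839 genes (7.45%). The estimate at 1000 U/kg was higher in 348 of them (3.09% of genes tested) and lower in 491 (4.36%). Without replicate 5 at 1000 U/kg these numbers were 58 higher and 421 lower. Without the undosed replicate 2 the balance turned, with 385 higher and 148 lower. Without both they were 93 and 131, and without the undosed replicate 4 they were 308 and 771.

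Most transcripts had an estimate near the undosed level. The log2 fold change lay inside 2-fold either way for 10317 of the 11268 genes (91.6%), inside 1.5-fold for 8776 and inside 1.25-fold for 6207. A transcript is called held within 2-fold here only where the whole 95% interval of its fold change lay inside that bound. This was so for 4695 genes (41.7%). The interval lay inside 1.5-fold for 833 genes (7.39%) and inside 1.25-fold for 0. Without both libraries that stood apart, 7060 of 11258 genes (62.7%) were held within 2-fold, 2421 within 1.5-fold and 25 within 1.25-fold. Of 11207 genes in both fits, 4406 were held within 2-fold in both, 2654 only without the 2 libraries, 289 only with them and 3858 in neither.

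The share of transcripts held differed between classes of level. Of the 99 genes of at least 1000 CPM, 95 had an estimate inside 2-fold and 52 (52.5%) were held. The shares held were 58.4% of the 932 genes of 100 to 1000 CPM, 56.7% of the 4858 genes of 10 to 100 CPM and 24.99% of the genes under 10 CPM. Without both libraries these shares were 84.8%, 85.9%, 83.2% and 40.2% in the same order. The median SE of the log2 fold change was 0.36, 0.32, 0.31 and 0.46 in these classes with all libraries, and 0.24, 0.22, 0.24 and 0.40 without both. The error was thus widest in the genes under 10 CPM in both these fits. With the replicate number as a block in a fit of the 12 libraries, the shares held were 12.1%, 37.9%, 47.8% and 14.3% in the same order, so that the most abundant class then had the lowest share.

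**Figure D1:**
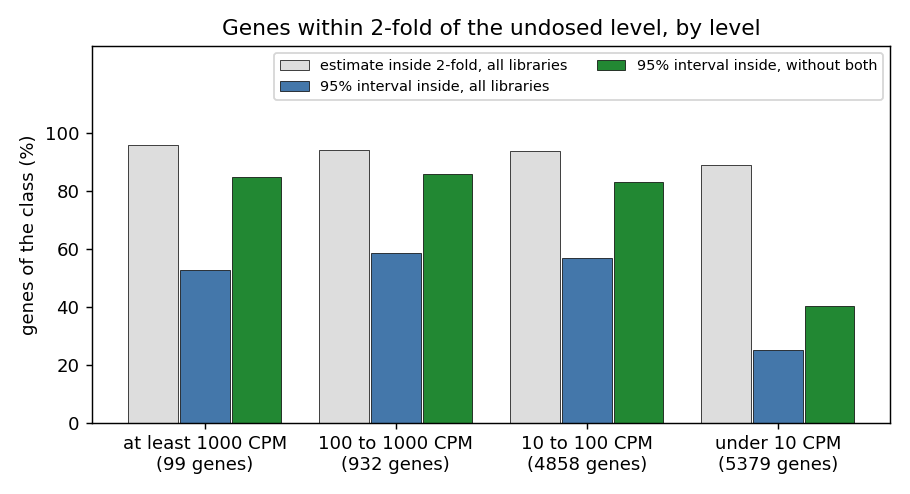
Share of genes within 2-fold of the undosed level in each class of mean CPM over the 12 libraries (x axis; numbers of genes in brackets), as a percentage of the class (y axis). Grey bars count estimates, blue bars whole 95% intervals with all libraries and green bars whole intervals without the undosed replicate 2 and replicate 5 at 1000 U/kg; in the 3 classes of at least 10 CPM the blue bars stand at 52.5% to 58.4% and the green ones at 83.2% to 85.9%.

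The direction of the estimates also differed between these classes, by small amounts. At 1000 U/kg the estimate was higher for 35 of the 99 genes of at least 1000 CPM, with a median log2 fold change of −0.15, and for 338 of the 932 genes of 100 to 1000 CPM, with a median of −0.10. It was higher for 2280 of the 4858 genes of 10 to 100 CPM (median −0.028). That 46.9% became 51.6% without the undosed replicate 2, 51.7% without both libraries (median 0.0083) and 51.0% with limma voom, so that the majority turned. The estimate was higher for 2935 of the 5379 genes under 10 CPM (median 0.054). Over all genes 5588 (49.6%) were higher, with a median of −0.0046. Without both libraries 51.9% of the 11207 genes in both fits were higher, with a median of 0.012. Genes of a class vary together between rats, so these counts are descriptions with no test. With DESeq2's size factors 35.4% of the most abundant class was higher, and with upper-quartile scaling 34.3%. The share was 22.2% without the undosed replicate 2 and 36.4% without both libraries, where the median of the class was −0.066. For the genes under 10 CPM, 54.6% were higher with all libraries, 46.2% without replicate 5 at 1000 U/kg and 54.3% without both, so that the majority turned when that library alone was left out.

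**Figure D2:**
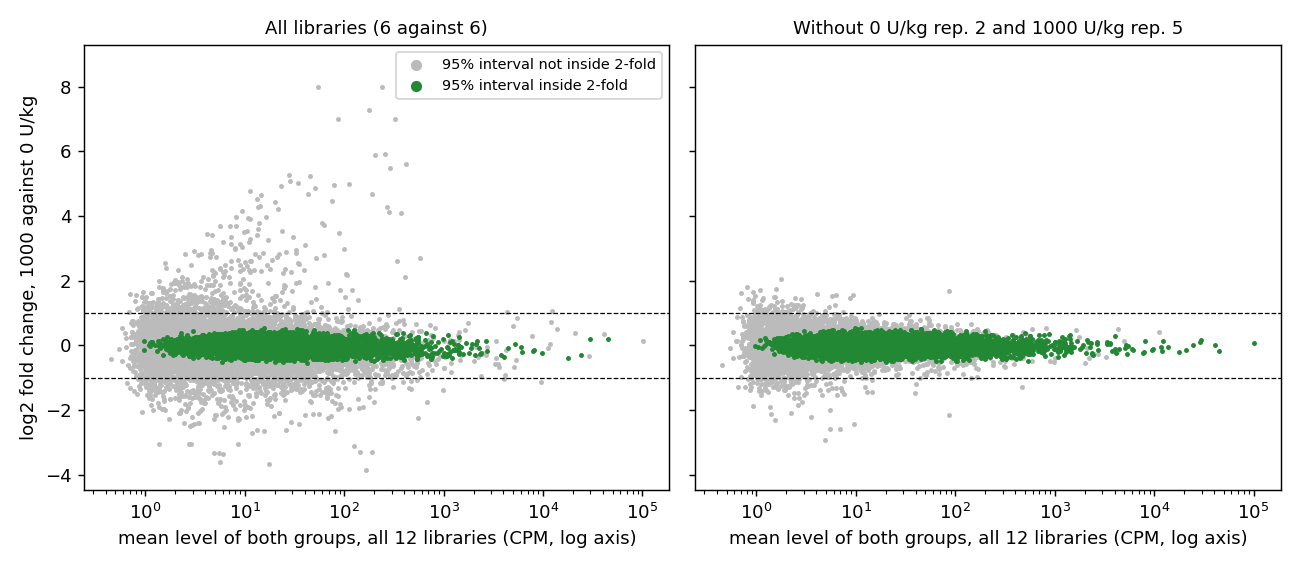
Log2 fold change between 1000 and 0 U/kg (y axis) of each gene against the mean of both groups' levels (x axis, CPM, log axis), with all libraries (left) and without the undosed replicate 2 and replicate 5 at 1000 U/kg (right). Green points are genes whose 95% interval lies inside 2-fold, grey points the others, and dashed lines mark 2-fold. At left 458 genes lie at least 2-fold higher and 493 at least 2-fold lower. Of all 11258 genes tested without both libraries 82 and 120 do. The right panel draws only the 11207 genes in both fits.

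The 10 most abundant transcripts, which are given here by rank, took 31.3% ± 4.06 of gene counts in undosed rats and 34.6% ± 3.44 at 1000 U/kg (SD, n = 6 each). The most abundant ranged from 7469 to 161600 CPM in undosed rats, with a median of 93450, and from 29720 to 157100 CPM at 1000 U/kg, with a median of 110300. The lowest values of the groups were those of the undosed replicate 2 and of replicate 5 at 1000 U/kg, and the groups overlapped over nearly their whole range. Between the doses it differed by 0.12 on the log2 scale (SE 0.55, edgeR adjusted p = 0.971), so that it was not held within 2-fold, and 0.081 (SE 0.40) without both libraries, where it was.

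The second transcript ranged from 33530 to 48080 CPM in undosed and from 33490 to 98240 CPM in dosed rats, with medians of 43100 and 39270 CPM. Only replicate 5 at 1000 U/kg lay above the undosed range. It was held within 2-fold, with a log2 fold change of 0.20 (95% interval −0.39 to 0.80) with all libraries and −0.17 (95% interval −0.59 to 0.24) without both, so that the sign turned. The tenth ranged from 485.3 to 11070 CPM in undosed rats (median 9209) and from 8659 to 48570 CPM in dosed rats (median 10610). Its lowest undosed value was again that of replicate 2 and its highest dosed value that of replicate 5, while the other 10 libraries lay between 7258 and 11070 CPM. The estimate was 1.07 on the log2 scale (SE 0.57; edgeR, adjusted p = 0.682) with all libraries and 0.12 (SE 0.28) without both.

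Of the 10 transcripts 4 were held within 2-fold with all libraries and all 10 without both. The estimate was higher for 7 with all libraries and for 5 without both, and 6 of the 10 changed sign. Of the 100 most abundant 52 were held, 96 had an estimate inside 2-fold, and their log2 fold changes ran from −1.13 to 1.07. Without both libraries 85 of the 100 were held. Of the 1000 most abundant, 577 were held with all libraries and 857 without both.

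**Figure D3:**
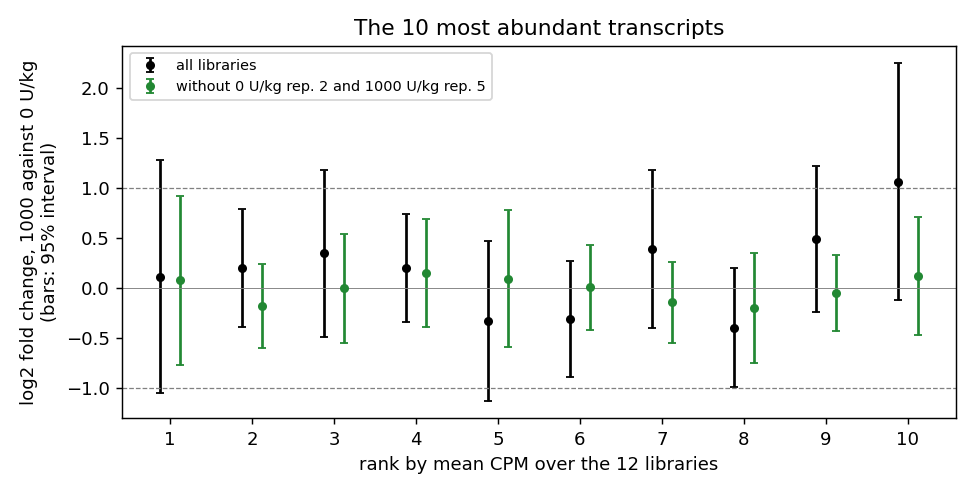
Log2 fold change between 1000 and 0 U/kg (y axis) of the 10 most abundant transcripts, by rank of mean CPM (x axis), with 95% intervals as bars; dashed lines mark 2-fold. With all libraries (black) 4 intervals lie inside 2-fold, and without the undosed replicate 2 and replicate 5 at 1000 U/kg (green) all 10 do.

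Differences past 2-fold came for the most part from a single library on each side. The estimate was at least 2-fold higher at 1000 U/kg for 458 genes (4.06%) and at least 2-fold lower for 493 (4.38%). Of the 458, replicate 5 at 1000 U/kg was the highest of the 12 libraries in 409, and 49 were still at least 2-fold higher without it. Of the 493, the undosed replicate 2 was the highest of the 12 in 447, and 62 were still at least 2-fold lower without it. Taking medians of the 6 rats, which a single library moves little, 335 of 11251 genes differed at least 2-fold between doses, where means of the same rats gave 959 of 11268. In the genes of at least 100 CPM, medians gave 0 in the most abundant class and 1 in the next, against 4 and 55 by means. In the genes of 10 to 100 CPM medians gave 35, against 303 by means. Most of the 335 were genes under 10 CPM, where medians gave 299 and means 597.

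The whole interval lay past 2-fold for 65 genes (0.577%), of which 56 were higher and 9 lower at 1000 U/kg. These are intervals of single genes, not adjusted for the number of genes. In 56 of the 65 the highest library was replicate 5 at 1000 U/kg, and in 8 it was the undosed replicate 2. Without both libraries 0 of the 65 had an interval past 2-fold.

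Few genes separated the 2 doses rat by rat. In 5 genes (0.0444%) every dosed library lay above every undosed one, and in 6 (0.0532%) every dosed library lay below. The 5 had log2 fold changes of 0.54 to 0.96 and mean levels of 2.70 to 88.0 CPM, and the 6 had log2 fold changes of −2.28 to −0.53 and mean levels of 1.14 to 68.0 CPM. The smallest edgeR adjusted p among them was 0.644.

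With all libraries, the spread between rats was wider in the undosed group for most genes. The median SD of log2 CPM was 0.743 over genes in undosed rats and 0.535 at 1000 U/kg, and 66.2% of genes had the larger SD in undosed rats. Without the undosed replicate 2 and replicate 5 at 1000 U/kg the medians were 0.426 and 0.392, and 55.7% of genes had the larger SD in undosed rats. This difference in spread was not tested. In the class of at least 1000 CPM the medians were 0.72 and 0.66 with all libraries, and 0.30 and 0.34 without both, so that the order of the groups turned. The order of the medians also turned in the class of 100 to 1000 CPM, from 0.65 and 0.52 to 0.287 and 0.293. By share of genes it did not turn there. Without both libraries, 52.5% of that class still had the larger SD in undosed rats, against 47.5% of the class of at least 1000 CPM.

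The same pair of libraries lay farthest from their groups. This distance is taken from the same log2 CPM values as their low correlation, so it is not a separate observation. In the undosed replicate 2, 54.7% of genes lay at least 2-fold from the median of its group, 2752 above and 3409 below it. In replicate 5 at 1000 U/kg 33.3% did, 1926 above and 1828 below. In the other 5 undosed libraries the share was 3.03% to 15.0%, and in the other 5 dosed libraries 4.01% to 10.2%. The undosed replicate 2 was the highest or lowest of its group in 75.3% of genes and replicate 5 at 1000 U/kg in 63.5%.

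**Figure D4:**
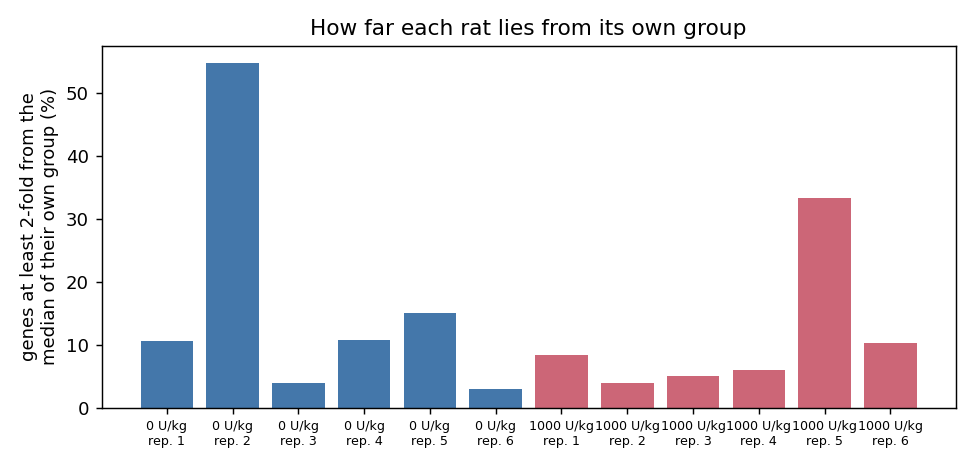
Share of the 11268 genes tested (y axis, %) whose log2 CPM in a library lies at least 2-fold from the median of the 6 libraries of its own dose, for each library (x axis; blue 0 U/kg, red 1000 U/kg). The undosed replicate 2 stands at 54.7% and replicate 5 at 1000 U/kg at 33.3%, and the others at 3.03% to 15.0%.

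The genes of smallest p were high in the same libraries, which follows in part from how they were chosen. Among genes that averaged at least 5 CPM over the 12 libraries, 2 were taken in each direction, and their levels describe how they were chosen. Each of the 4 reached that mean only through a single high library. That the high library is one of those that stood apart is therefore no further sign that it does. The gene of smallest p among those higher at 1000 U/kg ranged from 1.29 to 2.96 CPM in undosed rats (median 2.42) and from 1.2 to 2090 CPM in dosed rats (median 3.12). Replicate 5 held the 2090 CPM and the next dosed rat 3.44 CPM. ENSRNOG00000018250, the second, ranged from 0.777 to 4.12 CPM in undosed rats (median 1.54) and from 0.996 to 2850 CPM in dosed rats (median 2.35). The 2850 CPM were again those of replicate 5, and the next dosed rat held 3.29 CPM, inside the undosed range. The fitted difference was 8.00 on the log2 scale (SE 1.90; edgeR, adjusted p = 0.644), and 0.089 (SE 0.46) without both libraries that stood apart. At 5000 U/kg the same gene ranged from 0.698 to 1.59 CPM.

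On the lower side, ENSRNOG00000011887 ranged from 2.84 to 33.9 CPM in undosed rats (median 5.0) and from 1.69 to 3.40 CPM at 1000 U/kg (median 2.17). The undosed replicate 2 held the 33.9 CPM and the next undosed rat 9.50 CPM, and the groups overlapped between 2.84 and 3.40 CPM. The fit gave −2.05 on the log2 scale (SE 0.50; edgeR, adjusted p = 0.644). Without both libraries it was −1.03 (95% interval −1.68 to −0.37) and the edgeR adjusted p was 1.0 when rounded. Of these 4 genes it was the one whose interval, not adjusted for the number of genes, then still left out 0. At 5000 U/kg it ranged from 3.19 to 4.34 CPM. ENSRNOG00000010960 ranged from 1.0 to 53.5 CPM in undosed rats (median 2.02) and from 0 to 1.39 CPM in dosed rats (median 0.883). The 53.5 CPM were those of replicate 2, where the next undosed rat held 2.91 CPM. The estimate was −3.60 on the log2 scale (SE 0.99; edgeR, adjusted p = 0.644), and −1.33 (95% interval −2.69 to 0.039) without both libraries.

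**Figure D5:**
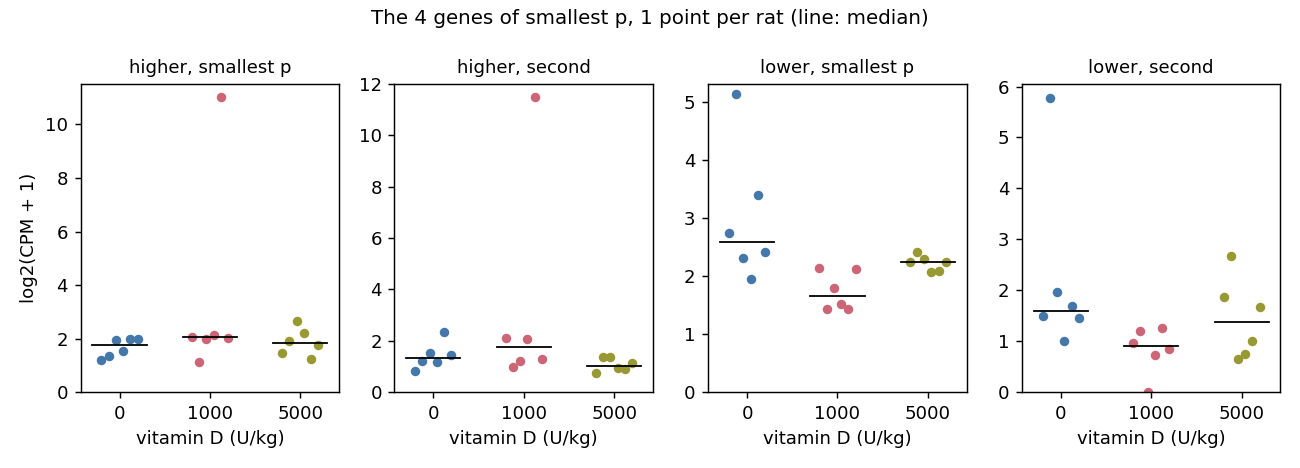
Levels of the 2 genes of smallest p in each direction between 1000 and 0 U/kg, as log2(CPM + 1) (y axis), with 1 point per rat and the median as a line, at each dose (x axis, U/kg). In the left pair a single rat at 1000 U/kg lies far above all others, and in the right pair a single undosed rat does.

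Between libraries of a group, the coefficient of variation that edgeR estimates beyond counting error was 0.527 with all libraries, and 0.384 when both that stood apart were left out. For the genes not held, a difference of 2-fold is not excluded by the interval, and the count of 0 called genes does not show that changes were absent.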

How the data were processed

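The tools named are STAR, HTSeq, FastQC and DESeq2, per the submitters' processing notes. None of their versions, the strand setting, the annotation and the build is given in the sources used here. The authors deposited raw read counts per Ensembl gene, 1 file per library, with no normalization. The 5 rows that name no gene were left out of library sizes and tests; per library of the 12, reads outside genes made up 7.34% to 11.8%, reads in more than 1 gene 2.54% to 3.84% and reads aligned at several places 9.1% to 14.1% of all rows. Near-identical paralogs and overlapping genes are therefore uncertain.

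Tests used edgeR 4.0.16 in R 4.3.3 (default filter by group, TMM scaling, robust quasi-likelihood fit of all 18 libraries with 3 dose groups, Benjamini-Hochberg adjustment over 11268 genes, threshold 0.05). The SE is the log2 fold change divided by the square root of F, and intervals are 95% from the t distribution, not adjusted over genes. The SD of log2 CPM used a prior count of 2. Scripts were tested on simulated counts. Alternatives were DESeq2 1.42.0, limma 3.58.1 voom with sample weights, other scalings and filters, a fit of 12 libraries, a replicate block and single libraries left out. Fits without both libraries of low correlation were chosen after seeing the data.

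The RefSeq table (GRCr8) listed 47357 genes, 0 with an Ensembl ID. The 39 gene lists, the marker lists and the count of known liver genes held within 2-fold could therefore not be run. The fallback rule took the 2 genes of smallest p in each direction with a mean of at least 5 CPM, and the ID of 1 of these 4 is not reported here. The comparison, lists and rules were chosen with earlier results of these data known. All pairs of libraries of a group differed by more than sampling noise (smallest chi-square over its degrees of freedom 15.2). Each library was counted as 1 replicate, and where separate handling is not stated, p-values measure the spread between libraries, part of which may be technical.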

Additional observations from a re-analysis of the deposited data

Results flagged for a closer look

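A library was marked where its distance from the closest of the other 5, over the range of all 6, passed Dixon's limit. Of 24 groups of values, 10 held such a library, where 1 in 20 would give 1.2. The groups are not independent, since several measures describe the same library and 8 of the groups are levels of genes picked for a small p. Those genes also had to average at least 5 CPM, which each reached only through a single high library.

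The undosed replicate 2 was marked in its mean Spearman correlation with its group (0.698), its share of reads outside genes (11.8%), its share of genes at least 2-fold from the group median (54.7%), and its levels of ENSRNOG00000011887 (33.9 CPM) and ENSRNOG00000010960 (53.5 CPM). Replicate 5 at 1000 U/kg was marked in its mean Spearman correlation (0.801), its share of genes at least 2-fold from the group median (33.3%), its level of ENSRNOG00000018250 (2846 CPM) and that of the gene of smallest p among those higher at the dose (2091 CPM). The undosed replicate 5 was marked in ENSRNOG00000018250 at 4.12 CPM.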

How the results depend on the processing

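The count of 0 called genes held under all 21 alternatives, with smallest adjusted p of 0.379 to 0.9998. For DESeq2 this count leaves out genes without an adjusted p. Among them were ENSRNOG00000018250 (log2 fold change 8.015, SE 1.362), ENSRNOG00000010960 (−3.698, SE 0.883) and the gene of smallest p among those higher. For these genes DESeq2 made no call either way. The 839 of 11268 genes at an unadjusted edgeR p under 0.05 became 1923 of 19788 with no filter on low counts, where more genes were tested. They became 471 of 10835 in a fit of the 12 libraries and 224 of 11258 without both libraries of low correlation. With single libraries left out they numbered 479 to 1094. The median log2 fold change was −0.050 to 0.028 with single libraries left out, the lowest without replicate 5 at 1000 U/kg. The 41.7% of genes held within 2-fold became 68.7% with limma voom and sample weights, 26.6% with no filter and 62.7% without both libraries. The share was 37.8% in a fit of the 12 libraries. With single libraries left out it was 34.7% to 56.5%, the highest without the undosed replicate 2. The log2 fold change of ENSRNOG00000018250 was 0.089 to 8.39, of ENSRNOG00000011887 −2.27 to −1.01 and of ENSRNOG00000010960 −3.86 to −1.17, with the sign of each kept under the alternatives run, and the last was not tested under the filter of 5 CPM. The list tests and the count of known liver genes were not run. In the fit with a replicate block 0 genes were called, 62 of 10835 had an unadjusted edgeR p under 0.05 and 31.3% were held within 2-fold. The labels do not say that a number pairs rats, and deviations of same-numbered libraries had r of −0.414 to 0.182 over 6 pairs, with 2 over 0.1, and 1 of 6 dosed libraries correlated best with its own number.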
